A study of Mus musculus with 16 samples.

Results

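The cytochrome P450 genes Cyp2b9, Cyp2b10 and Cyp2b13 and the nuclear receptor gene Nr1i3, which encodes CAR, were followed in mouse liver. These 4 genes were taken by their symbols from the 40840 in the count table, and all 4 passed the filter on low counts, as did 14484 genes in all. Liver RNA was sequenced in 16 libraries, 4 for each combination of genotype and dosing time. The groups were Cry1-/- Cry2-/- mice (CryDKO) dosed at circadian time (CT) 16, CryDKO mice dosed at CT8, wild-type C57BL/6J mice (WT) dosed at CT16 and WT mice dosed at CT8. CryDKO mice lack both cryptochromes in the whole body, and their line was bred from Cry1/2 heterozygotes on a C57BL/6J background. All mice were males of 12 to 16 weeks. They lived on a cycle of 12 h light and 12 h dark, and stayed in constant darkness from 3 days before the drug onwards. All received oxaliplatin, a platinum drug, at 12 mg/kg by intraperitoneal injection, so no group shows an undosed liver. The labels name dosing on 3 days and the series text also a single dose, and the time of liver collection was not stated. Nothing states that the 4 libraries of a group came from separate mice, so p-values measure the spread between libraries, which may be technical. The comparisons ask how genotype and dosing time change the liver transcriptome under the drug.

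CAR is held in the hepatocyte cytoplasm with Hsp90 and a co-chaperone encoded by Dnajc7. After a drug binds it or epidermal growth factor signalling is blocked, CAR is dephosphorylated, enters the nucleus, pairs with a retinoid X receptor and switches on genes that oxidise, conjugate and export foreign compounds. Cyp2b10 is the standard CAR target in mouse liver and responds to phenobarbital. Cyp2b9 and Cyp2b13 are close relatives of Cyp2b10 in the same gene cluster, and both are known as female-predominant genes that pulses of growth hormone hold low in male mouse liver. Cryptochromes repress the clock activators CLOCK and BMAL1, which bind the E-box CACGTG, and PAR bZIP factors such as DBP, TEF and HLF, which bind the D-box, are known regulators of Nr1i3.

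The 250 bases before the annotated start are shown for the 4 genes because the Cyp2b9 and Cyp2b13 promoters are nearly the same. The Cyp2b13 reads nevertheless spread far more widely over the CryDKO libraries than the Cyp2b9 reads. The sequences are those of RefSeq on build GRCm38.p6 and all lie on the plus strand, at chr7:26173159-26173408 for Cyp2b9, chr7:26061245-26061494 for Cyp2b13, chr7:25897408-25897657 for Cyp2b10 and chr1:171213720-171213969 for Nr1i3. Capitals mark the bases at which the first pair differ and the E-box of Nr1i3.
Cyp2b9: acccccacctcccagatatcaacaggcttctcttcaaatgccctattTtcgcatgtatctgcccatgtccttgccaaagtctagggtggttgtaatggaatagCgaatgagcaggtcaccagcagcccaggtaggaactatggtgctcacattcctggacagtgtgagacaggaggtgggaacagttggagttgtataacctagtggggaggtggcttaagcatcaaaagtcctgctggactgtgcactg
Cyp2b13: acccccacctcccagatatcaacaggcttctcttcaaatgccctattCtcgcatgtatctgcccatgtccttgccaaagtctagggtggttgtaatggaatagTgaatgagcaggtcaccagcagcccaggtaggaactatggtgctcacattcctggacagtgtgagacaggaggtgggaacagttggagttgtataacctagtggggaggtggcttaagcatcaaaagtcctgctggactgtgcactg
Cyp2b10: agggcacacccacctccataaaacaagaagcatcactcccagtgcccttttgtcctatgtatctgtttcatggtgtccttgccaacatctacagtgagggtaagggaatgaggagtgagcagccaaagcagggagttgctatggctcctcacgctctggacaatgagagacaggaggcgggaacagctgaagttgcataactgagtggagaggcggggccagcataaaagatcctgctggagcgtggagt
Nr1i3: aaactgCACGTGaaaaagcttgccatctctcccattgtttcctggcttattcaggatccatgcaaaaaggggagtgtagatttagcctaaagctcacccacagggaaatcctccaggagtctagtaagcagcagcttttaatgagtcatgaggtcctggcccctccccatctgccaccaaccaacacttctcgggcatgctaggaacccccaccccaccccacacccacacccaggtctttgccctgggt

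Counted from 1 at the 5′ end of the window, the Cyp2b9 and Cyp2b13 windows differed by T48C and C104T (Cyp2b9 base first), and 248 of 250 bases were identical. The Cyp2b10 window shared 71.4% of aligned positions with either of them. Searched on both strands were 8 motifs, namely the E-box CACGTG, the TATA box TATAAA and its relative CATAAAA, the STAT5 site TTCNNNGAA, the nuclear receptor sites AGGTCA and GGGTCA, the HNF6 site ATTGAT and the D-box TTATGNAA. CACGTG was in the Nr1i3 window alone among the 4, at base -244 from the start. CACGTG was in 6.05% of 27025 promoter windows of the same length. The nuclear receptor site AGGTCA began at -138 in both Cyp2b9 and Cyp2b13 and was in 13.8% of all windows. The D-box was in the Cyp2b10 window, beginning at -58, and in 3.23% of all windows. CATAAAA lay in the Cyp2b10 window at -234 and -28 and was in 3.92% of windows. None of the matches overlapped another, and the remaining motifs were not in these windows. The longest coding transcripts of Cyp2b9 and Cyp2b13 were 89.3% identical, those of Cyp2b9 and Cyp2b10 84.8%, and those of Cyp2b10 and Cyp2b13 84.7%. The longest identical stretch was 113 bases for Cyp2b9 and Cyp2b13, 86 for Cyp2b10 and Cyp2b13 and 55 for Cyp2b9 and Cyp2b10, against reads of 150 bases in pairs, and the sources used here do not say how the authors treated multiply aligned reads.

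Library totals ranged from 18083916 to 29934138 reads, so 1 read was worth between 0.0309 and 0.0588 CPM (reads per 1e6 of the library size scaled by TMM). Library 8 of WT_CT16 lay closer to the mean of WT_CT8 than to that of the other WT_CT16 libraries. The root mean square differences in log2 CPM over the most variable genes were 0.77 and 1.10. Likewise, CryDKO_CT16 libraries 11 and 12 and CryDKO_CT8 libraries 15 and 16 lay closer to the CryDKO group of the other dosing time. Their differences were 0.92, 1.02, 0.97 and 1.11 to it, against 1.09, 1.15, 1.25 and 1.16 to the rest of their own group. Results that rest on library 8 are given with and without it. Reads of the deleted genes could not check the labels, because Cry1 was higher in libraries labelled CryDKO than in WT (log2 change 2.15 ± 0.18 at CT16 and 1.04 ± 0.17 at CT8, SE), Cry2 was lower (-0.94 ± 0.14 and -0.74 ± 0.14), and where the deletions lie was not given. CryDKO and WT below are these labels. Xist did not exceed 0.712 CPM in any library, and the Y-linked genes Ddx3y, Eif2s3y, Kdm5d and Uty were read in all 16. The 7 hepatocyte markers summed to 109212 to 173875 CPM in CryDKO_CT16, 109613 to 150911 in CryDKO_CT8, 63450 to 110089 in WT_CT16 and 59187 to 70719 in WT_CT8. Of the 10 Kupffer cell markers, 5 were higher in CryDKO at CT16 and 2 at CT8, with sums of 114 to 192, 72.9 to 176, 29.3 to 103 and 60.7 to 84.3 CPM in CryDKO_CT16, CryDKO_CT8, WT_CT16 and WT_CT8. Of the 10 stellate cell markers, 2 were higher at CT16 and 4 at CT8, with sums of 60.1 to 178, 148 to 315, 81.4 to 185 and 132 to 168 CPM in the same order, and of 6 tested cholangiocyte markers 1 was higher and 1 lower at CT16 and 2 were higher at CT8, with sums of 48.2 to 149, 53.3 to 148, 47.1 to 78.2 and 26.9 to 93.6 CPM. A total of 1 of 8 sinusoidal endothelial markers was higher at CT16 and none at CT8, and neutrophil markers did not exceed 9.46 CPM and lymphocyte markers 3.62 CPM in sum in any library. Of 2 tested erythroid markers, 1 was higher at CT16, and 1 was higher and 1 lower at CT8, with sums over the list of 12.0 to 43.4, 12.7 to 31.3, 28.3 to 50.6 and 39.8 to 48.1 CPM in CryDKO_CT16, CryDKO_CT8, WT_CT16 and WT_CT8. The higher gene, Hbb-bs, read at most 0.768 CPM in CryDKO and 0.124 CPM in WT. It passed the filter on low counts only through CryDKO libraries, so it had to be higher. Beside these marker counts, 9% of all tested genes were higher and 9.15% lower in CryDKO at CT16, and 18.7% higher and 20.3% lower at CT8. The part of cell mixture in the results below was not tested. In liver RNA, fewer cells of a type and less RNA per cell cannot be told apart.

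Genotype separated Cyp2b9 more clearly than any other member. Cyp2b9 read 355, 384, 55.4 and 151 CPM in CryDKO_CT16 (libraries 11, 12, 13 and 14) and 329.7, 126, 149 and 331 CPM in CryDKO_CT8 (libraries 9, 10, 15 and 16), against 2.39, 1.40, 1.43 and 2.13 CPM in WT_CT16 (libraries 5 to 8) and 1.73, 1.45, 1.59 and 0.375 CPM in WT_CT8 (libraries 1 to 4). All 8 CryDKO libraries were above all 8 WT libraries, and the lowest CryDKO library, 13, was still far above the highest WT one. Group means were 236 ± 159 and 234 ± 112 CPM in CryDKO_CT16 and CryDKO_CT8, against 1.84 ± 0.50 and 1.29 ± 0.62 CPM in WT_CT16 and WT_CT8 (SD, n = 4 each). Tested with the quasi-likelihood model of edgeR and adjusted by Benjamini and Hochberg's method over all tested genes, Cyp2b9 rose by 7.01 ± 0.71 on the log2 scale at CT16 (SE, adjusted p = 5.9e-05) and by 7.50 ± 0.73 at CT8 (adjusted p = 2.65e-05). Both calls held in all 24 alternative settings. At CT16, 1 of the 4 members was called higher and 0 lower in CryDKO, where 9% and 9.15% of all tested genes were. At CT8, 3 were called higher and 1 lower, where 18.7% and 20.3% of tested genes were. The 3 include Cyp2b13 and Cyp2b10, which passed the filter on low counts only through their CryDKO libraries. In either direction, 18.2% of tested genes were called at CT16 and 39% at CT8.

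**Figure D1:**
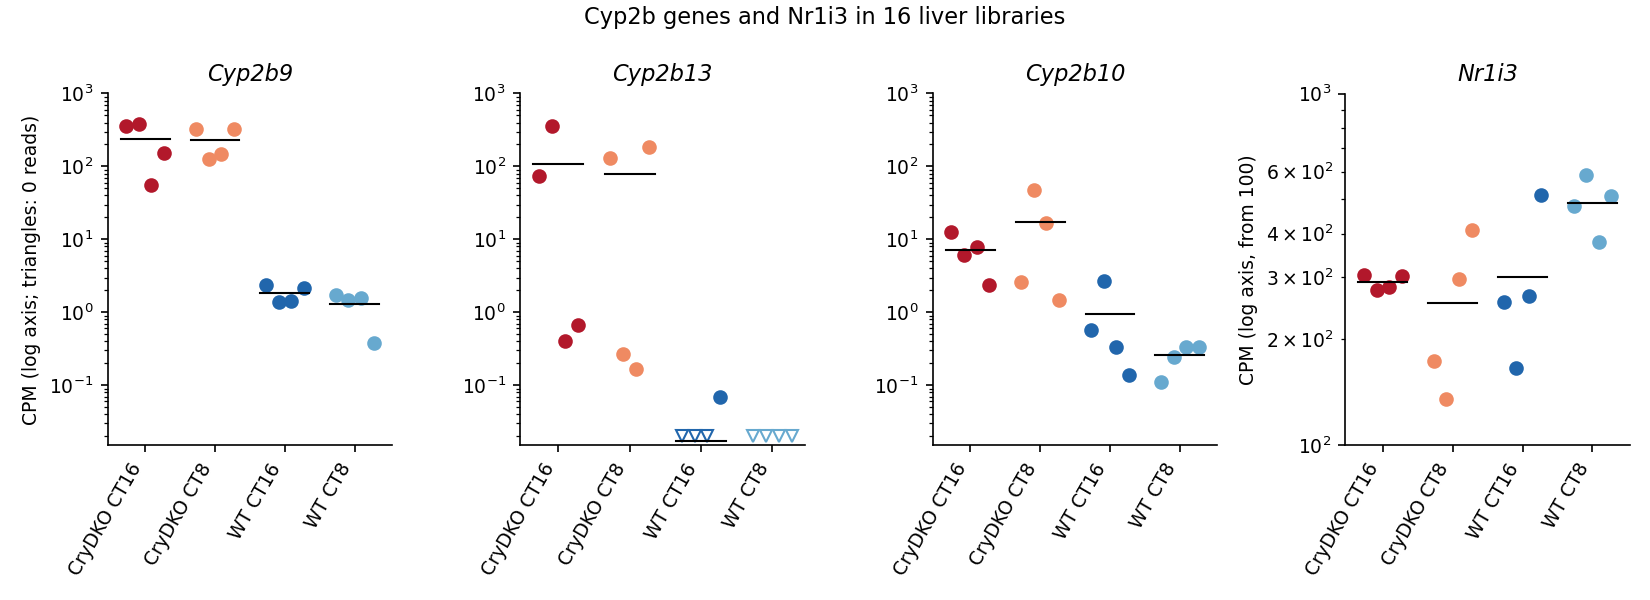
CPM of the 4 genes in each of the 16 libraries (points, log axes; lines are group means, open triangles 0 reads; the Nr1i3 axis begins at 100). The 8 CryDKO libraries sit between 55.4 and 384 CPM for Cyp2b9, all above the WT libraries, and fall into a high and a low set for Cyp2b13.

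Cyp2b13 was nearly silent in WT livers and split the CryDKO libraries into a set with at least 1270 reads and a set with at most 13 reads. It had 1270, 8015, 7 and 13 reads in CryDKO_CT16 (libraries 11 to 14) and 2980, 6, 3 and 3705 reads in CryDKO_CT8 (libraries 9, 10, 15 and 16), against 0, 0, 0 and 2 reads in WT_CT16 and 0 in each WT_CT8 library. As CPM these were 74.7, 355, 0.400 and 0.666 in CryDKO_CT16 and 129.9, 0.270, 0.166 and 184 in CryDKO_CT8, against at most 0.0697 in WT_CT16. In all, 4 of 8 CryDKO libraries exceeded 50 CPM, the other 4 stayed under 1 CPM, and each dosing time held 2 of either kind. The highest CryDKO library had 2136 times the CPM of the lowest.

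Means of Cyp2b13 were 108 ± 168 and 78.5 ± 93.0 CPM in CryDKO_CT16 and CryDKO_CT8 (SD, n = 4 each), with an SD as large as or larger than the mean. At CT8, with 6694 reads in CryDKO against 0 in WT, Cyp2b13 was at least 2942-fold higher in CryDKO, taking 3 reads over the WT group as the floor. At CT16, 9305 reads against 2 gave a ratio of 6551 with a 95% counting interval of 1813 to 54099.9, which covers counting error only. Both WT reads came from library 8, and without it the CT16 ratio becomes a lower bound of 3207-fold against the same floor. Library 12 held 8015 of the 9305 CryDKO_CT16 reads, and without it the ratio was 1288 (356 to 10647), below the lower limit over all libraries. At CT8 the bound was 1732-fold without library 16. Cyp2b13 passed the filter on low counts only through CryDKO libraries, so a gene that passed in this way had to differ. The edgeR test called the difference at CT8 (adjusted p = 0.0391) but not at CT16 (adjusted p = 0.0609), although every CryDKO library was above every WT library at both times, as for 9.65% and 18.7% of genes at CT16 and CT8. The CT8 call was lost without any of the WT_CT8 libraries 1 to 4 (adjusted p = 0.0678, 0.0762, 0.066 and 0.0711), the WT_CT16 libraries 5 to 8 (0.0529, 0.0532, 0.0538 and 0.0946), CryDKO_CT8 library 9 or 16 (0.0683 and 0.0672) or CryDKO_CT16 library 11 (0.053), and with voom (0.29) or without the filter (0.0612). The CT16 difference was called with DESeq2 (adjusted p = 3.38e-05) and without the robust option (0.0128).

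Cyp2b10, the standard CAR target, was read at low levels in every group and rose in CryDKO at CT8. It read 12.5, 6.15, 7.82 and 2.36 CPM in CryDKO_CT16 (libraries 11 to 14) and 2.57, 47.8, 16.5 and 1.49 CPM in CryDKO_CT8 (libraries 9, 10, 15 and 16), against 0.578, 2.70, 0.331 and 0.139 CPM in WT_CT16 (libraries 5 to 8) and 0.110, 0.248, 0.336 and 0.338 CPM in WT_CT8. The groups did not overlap at CT8, while at CT16 WT library 6 lay above CryDKO library 14. Means were 7.20 ± 4.19 and 17.1 ± 21.6 CPM in CryDKO_CT16 and CryDKO_CT8, against 0.936 ± 1.19 and 0.258 ± 0.107 CPM in WT_CT16 and WT_CT8 (SD, n = 4 each).

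By genotype at CT8, Cyp2b10 rose by 6.04 ± 1.30 on the log2 scale (edgeR, SE, adjusted p = 0.00342), and by 4.72 without library 10, which held most of the reads. The call held in all 24 alternatives, though Cyp2b10 passed the filter on low counts only through CryDKO libraries, where it was high. At CT16 the log2 change was 2.92 ± 1.10 and did not pass (adjusted p = 0.0828). It passed without WT_CT16 library 6 (4.37, adjusted p = 0.0398), without CryDKO_CT8 library 10 (0.0474), with DESeq2 (0.0236) and without the robust option (0.0319). Whether the genotype effect differed between dosing times was tested as an interaction, at -3.11 ± 1.68 (adjusted p = 0.436), so a difference between times was not shown.

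Among the 8 CryDKO libraries, Cyp2b13 followed Cyp2b9 and Cyp2b10 did not. Per 100 Cyp2b9 reads there were 21.0, 92.3, 0.722 and 0.441 Cyp2b13 reads in CryDKO_CT16 libraries 11 to 14 and 39.4, 0.215, 0.111 and 55.6 in CryDKO_CT8 libraries 9, 10, 15 and 16. The 4 libraries with high Cyp2b13 were also the 4 with the most Cyp2b9, at 329.7 CPM or above, and the 4 with low Cyp2b13 had 151 CPM of Cyp2b9 or less. Deviations of log2 CPM from the group means gave r = 0.89 and rho = 0.86 for Cyp2b9 and Cyp2b13 over these 8 libraries, which describes the split into 2 sets and carries no p. For Cyp2b9 and Cyp2b10 r was -0.38, and for Cyp2b10 and Cyp2b13 it was -0.52. The highest Cyp2b10 library, 10, was among the lowest for Cyp2b13. Cyp2b9 made up 71.3% of the reads of the 3 genes in library 9 (95% exact interval 70.5 to 72.2) and Cyp2b10 0.556%, whereas in library 10 Cyp2b10 made up 27.5% (26.1 to 29.0). In sum the 3 genes reached 351 ± 308 and 329 ± 186 CPM in CryDKO_CT16 and CryDKO_CT8, against 2.79 ± 1.00 and 1.55 ± 0.56 CPM in WT_CT16 and WT_CT8 (SD, n = 4 each).

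**Figure D2:**
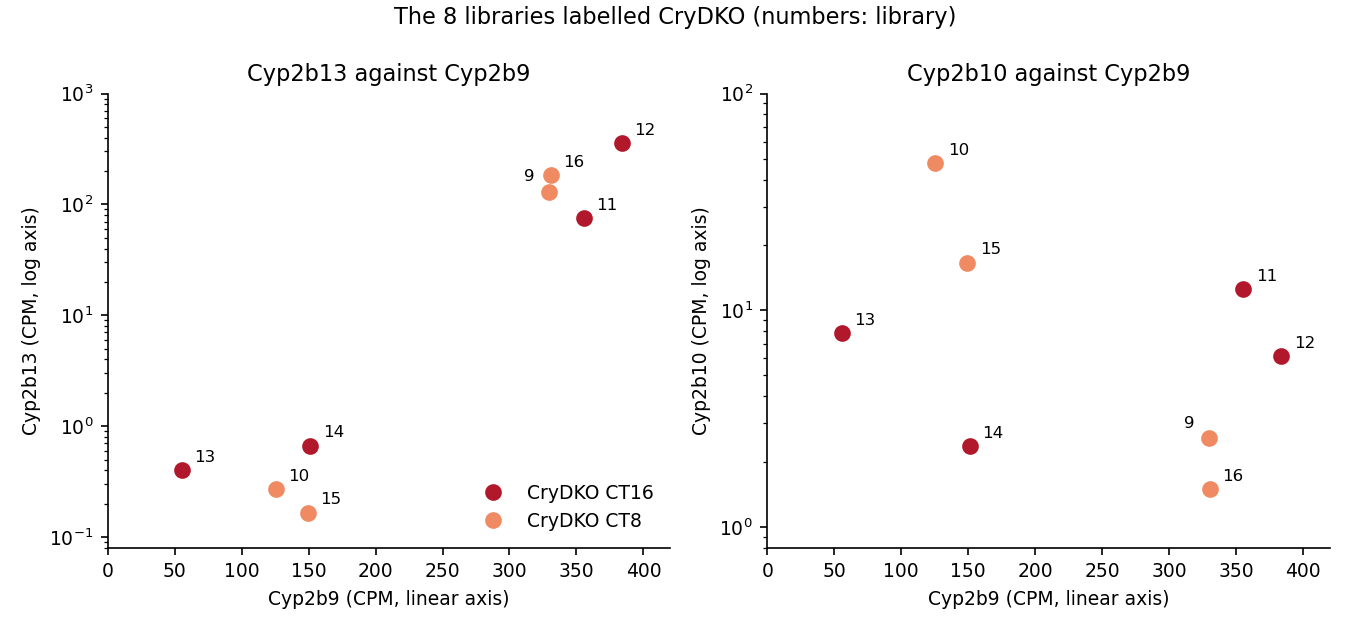
Cyp2b13 (left) and Cyp2b10 (right, both log axes, CPM) against Cyp2b9 (linear axis, CPM) in the 8 CryDKO libraries, each point 1 library with its number. Libraries 9, 11, 12 and 16 form the upper set for Cyp2b13 at 329.7 to 384 CPM of Cyp2b9, and the highest Cyp2b10 value, 47.8 CPM, belongs to library 10.

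Levels were compared between genes per kilobase of transcript. Mean levels per kilobase in CryDKO_CT16 were 210.1 ± 10.2 CPM for Nr1i3, 126 ± 84.8 for Cyp2b9, 57.4 ± 89.8 for Cyp2b13 and 3.85 ± 2.24 for Cyp2b10 (SD, n = 4). In CryDKO_CT8 the order was the same, with 183 ± 89.9, 125 ± 59.5, 41.9 ± 49.6 and 9.15 ± 11.5 CPM per kilobase. Between Cyp2b9 and Cyp2b13, and between Cyp2b13 and Cyp2b10, the libraries overlapped at both times, as did Nr1i3 and Cyp2b9. In WT_CT16 the order was Nr1i3 (217 ± 108), Cyp2b9 (0.980 ± 0.265), Cyp2b10 (0.501 ± 0.636) and Cyp2b13 (0.00930 ± 0.0186), and in WT_CT8 it was Nr1i3 (353 ± 62.2), Cyp2b9 (0.686 ± 0.330), Cyp2b10 (0.138 ± 0.0572) and Cyp2b13 at 0. Cyp2b9 and Cyp2b10 overlapped in WT_CT16 and not in WT_CT8, and in WT_CT16 the lowest Cyp2b10 library was above the highest Cyp2b13 library. The further genes Cyp2b19 and Cyp2b23 did not pass the filter, with at most 0.149 CPM in any library, and the pseudogenes Cyp2b26-ps, Cyp2b27-ps and Cyp2b28-ps were not analysed here.

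Nr1i3, in contrast to the Cyp2b genes, was read well in every group and differed modestly. It read 304, 277, 282 and 303 CPM in CryDKO_CT16 (libraries 11 to 14) and 174, 136, 297 and 409.8 CPM in CryDKO_CT8 (libraries 9, 10, 15 and 16), against 255, 166, 267 and 514 CPM in WT_CT16 (libraries 5 to 8) and 479, 587, 379 and 511 CPM in WT_CT8 (libraries 1 to 4). WT_CT8 was the highest group, library 8 of WT_CT16 lay within its range, and CryDKO library 16 exceeded WT library 3, so the genotypes overlapped at both times. Means were 291 ± 14.2 and 254 ± 125 CPM in CryDKO_CT16 and CryDKO_CT8, against 300.3 ± 149 and 489 ± 86.3 CPM in WT_CT16 and WT_CT8 (SD, n = 4 each). Without library 8, WT_CT16 averaged 229 ± 55.1 CPM (n = 3).

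By genotype at CT8, Nr1i3 fell by 0.95 on the log2 scale (SE 0.32, edgeR adjusted p = 0.0291). The call was lost without WT_CT8 library 1, 2 or 4 (adjusted p = 0.0531, 0.0812 and 0.0608), without CryDKO_CT8 library 9 or 10 (0.0921 and 0.0749) and without the filter on low counts (0.0821). At CT16 the log2 change was -0.04 ± 0.32 (adjusted p = 0.94), and 0.34 without library 8 (adjusted p = 0.466). Between dosing times in WT, CT16 against CT8, it was -0.70 ± 0.32 and did not pass (adjusted p = 0.176), whereas without library 8 it was -1.05 and passed (adjusted p = 0.0174). In CryDKO the same comparison gave 0.20 ± 0.32 (adjusted p = 0.932). The interaction was 0.90 ± 0.46 (adjusted p = 0.399), and 0.0749 was the lowest adjusted p among its alternatives, so the genotypes were not shown to differ in their response to dosing time.

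Nr1i3 shares much of its length with Tomm40l, which encodes a protein of the mitochondrial import channel family on the opposite strand. In GENCODE vM21, 3304 of the 4414 exon bases of Nr1i3 also lie in Tomm40l exons, and the sources used here do not give the strand setting of the authors' counting, so reads of both genes cannot be told apart. Tomm40l was also the gene whose values were most like those of Nr1i3 over the 16 libraries (r = 0.95 and rho = 0.93 for deviations from group means). It averaged 241 ± 21.3 and 191 ± 101 CPM in CryDKO_CT16 and CryDKO_CT8, against 305 ± 166 and 549.8 ± 54.1 CPM in WT_CT16 and WT_CT8 (SD, n = 4 each). By genotype at CT8, Tomm40l fell by 1.53 on the log2 scale (SE 0.36, edgeR adjusted p = 0.00361), and the groups did not overlap. Its change at CT16 was -0.34 ± 0.35 (adjusted p = 0.527). The ratio of Nr1i3 to Tomm40l reads was between 1.12 and 1.26 in CryDKO_CT16 and between 1.12 and 1.73 in CryDKO_CT8, against 0.887 to 1.10 in WT_CT16 and 0.796 to 0.975 in WT_CT8.

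**Figure D3:**
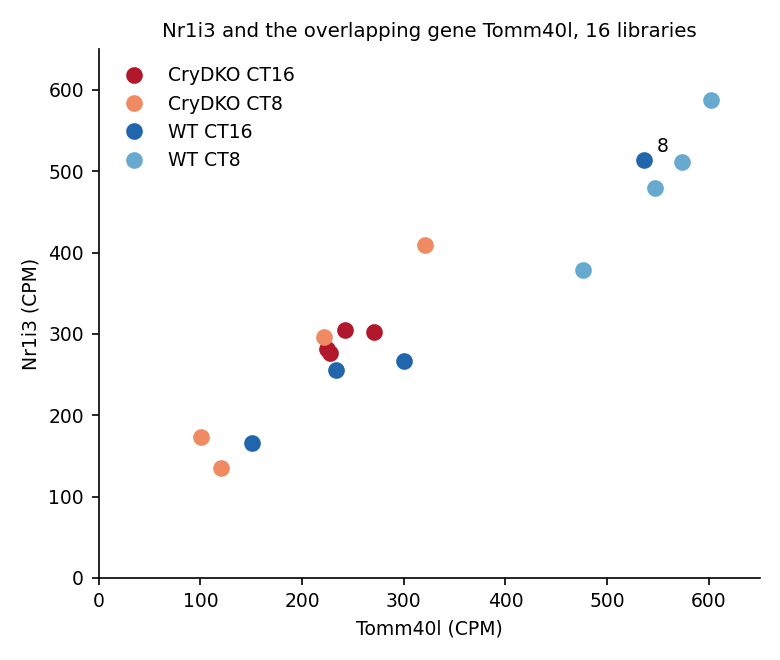
Nr1i3 against Tomm40l (CPM, linear axes) in the 16 libraries, coloured by group. The 2 genes rise together over the libraries, and library 8 of WT_CT16, marked, lies at 514 CPM of Nr1i3 among the WT_CT8 libraries.

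Dosing time moved none of the 4 genes past the threshold in either genotype. In CryDKO, CT16 against CT8, log2 changes were 0.02 ± 0.53 for Cyp2b9 (edgeR adjusted p = 0.999), -1.25 ± 0.96 for Cyp2b10 (0.837) and 0.46 ± 1.92 for Cyp2b13 (0.978). No gene at all was called in that comparison by edgeR (0% of those tested), 938 had an unadjusted p under 0.05, and DESeq2 called 13. The 95% interval for Cyp2b9 ran from -1.02 to 1.05, that for Cyp2b10 from -3.14 to 0.63 and that for Cyp2b13 from -3.31 to 4.22, so several-fold differences between times lie inside them. In WT, where 2.53% of tested genes were called, the log2 change was 0.51 ± 0.67 for Cyp2b9 (adjusted p = 0.651) and 1.86 ± 1.38 for Cyp2b10 (0.407). Library 6 alone held 75 of the 102 Cyp2b10 reads of WT_CT16, and without it the change was 0.42. Cyp2b13 had no more than 2 reads in either WT group and gives no fold between them. The interaction of genotype and dosing time, called for 0.0414% of genes, was -0.49 ± 0.85 for Cyp2b9 (adjusted p = 0.84).

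**Figure D4:**
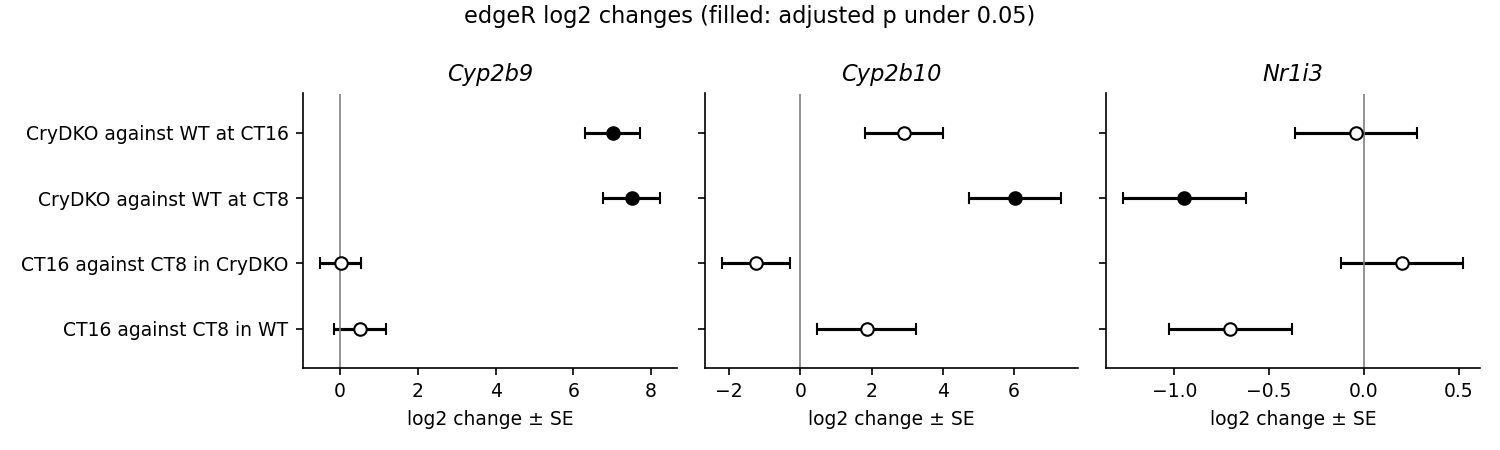
Log2 changes with SE (edgeR) of Cyp2b9, Cyp2b10 and Nr1i3 in the 4 comparisons, on a separate scale for each gene, filled where the adjusted p was under 0.05. Cyp2b9 is at 7.01 and 7.50 by genotype, and all 3 genes are open in both comparisons of dosing times.

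The genes most like each Cyp2b member were listed by the correlation of deviations from group means over the 8 CryDKO libraries, among 10415 genes, as a description without p. For Cyp2b9 they were Slc22a27 (r = 0.96), Cyp2d26 (0.96), Acot3 (0.96), Flvcr1 (0.95) and Mars2 (0.95). For Cyp2b13 they were Cyp2a22 (0.99), Zfp426 (0.98), Zfp324 (0.98), Ranbp10 (0.96) and Cables1 (0.95), and for Cyp2b10 Cnih4 (0.99), H2az1 (0.98), Zdhhc14 (0.96), Idh3a (0.96) and B9d2 (0.96). Cyp2a22 lies in the same chromosome 7 cluster as Cyp2b13 and read 25.2, 27.6, 7.94 and 9.37 CPM in CryDKO_CT16 libraries 11 to 14 and 43.0, 11.1, 14.1 and 44.6 CPM in CryDKO_CT8 libraries 9, 10, 15 and 16, against 7.84 to 12.97 CPM in WT_CT16 and 8.03 to 14.7 CPM in WT_CT8. Its 4 highest CryDKO libraries were the 4 with high Cyp2b13, while the others lay within the WT range. Nr1i3 was followed, after Tomm40l, by Rev1 (r = 0.95), Olfr1033 (0.93), Zkscan7 (0.92) and Tmed8 (0.91) over 16 libraries. The genes named are the highest of all those compared, and the part of depth and composition in these correlations was not tested.

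In all, 7 neighbouring Cyp2 genes of the cluster were tested beside the members. At CT16, 0 were called higher and 2 lower in CryDKO, and at CT8, 2 were called higher and 2 lower, beside 9% and 9.15% of all tested genes called higher and lower at CT16 and 18.7% and 20.3% at CT8. The medians were 0.11 and 1.14 on the log2 scale against -0.01 and -0.02 over all genes. Cyp2a5, a coumarin hydroxylase, averaged 334 and 420.4 CPM in CryDKO_CT16 and CryDKO_CT8, against 1239.9 and 939 CPM in WT_CT16 and WT_CT8, with log2 changes of -1.89 ± 0.24 (edgeR adjusted p = 4.97e-05) and -1.16 ± 0.24 (0.00102). Cyp2g1 fell by 3.38 at CT16 (SE 0.52, adjusted p = 0.000288) and by 1.90 at CT8 (SE 0.50, adjusted p = 0.00608), at a mean of 3.64 and 1.62 CPM in WT. Cyp2a12 rose by 1.14 ± 0.19 at CT8 (adjusted p = 0.000174) and Cyp2f2 by 0.80 ± 0.27 (adjusted p = 0.0257, called in 20 of 24 alternatives). Cyp2a4 is nearly identical to Cyp2a5 and their reads are uncertain.

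Of 14 genes that encode partners of CAR, chaperones and signalling proteins acting on it, 1 was higher and 0 lower in CryDKO at CT16, and 5 were higher and 0 lower at CT8, with medians of 0.15 and 0.30 on the log2 scale. Of all tested genes 9% were higher and 9.15% lower at CT16, and 18.7% higher and 20.3% lower at CT8. At CT8 Rxra and Rxrb, which encode the retinoid X receptors that pair with CAR, rose by 0.65 ± 0.17 (edgeR adjusted p = 0.00507) and 0.46 ± 0.11 (0.00286), Hsp90ab1, a chaperone subunit, by 0.64 ± 0.20 (0.0147), Ppp2ca, the catalytic subunit of the phosphatase PP2A, by 0.37 ± 0.13 (0.0312) and Stk11, a kinase upstream of AMPK, by 0.37 ± 0.12 (0.0213). With scaling by library size alone, which moves the median of all genes by -0.34 at CT8 and -0.15 at CT16, none of these 5 was called, and none of them reversed. Over all 24 alternatives, Rxra and Rxrb were called in 23 each, Hsp90ab1 in 22, Stk11 in 20 and Ppp2ca in 19. Rxra read 549 to 627 CPM in CryDKO_CT16 and 427 to 597 in CryDKO_CT8, against 384 to 598 in WT_CT16 and 300.0 to 397 in WT_CT8, so only the CT8 groups were apart. Ppp1r16a, the subunit of protein phosphatase 1 named at CT16 (0.39 ± 0.13, adjusted p = 0.0404), was called in 10 of 24 alternatives.

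Among 12 coregulators, Med1, the mediator subunit that binds nuclear receptors, fell in CryDKO by 0.69 at CT16 (SE 0.14, edgeR adjusted p = 0.00212) and by 0.65 at CT8 (SE 0.14, adjusted p = 0.00123), in all 24 alternatives. It read 16.3 to 21.9 CPM in CryDKO_CT16 and 19.0 to 25.2 in CryDKO_CT8, against 26.8 to 36.5 in WT_CT16 and 30.1 to 37.1 in WT_CT8, with no overlap at either time.

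Of 12 genes known to control Nr1i3 or related to it, 2 were higher and 3 lower in CryDKO at CT16, and 2 were higher and 2 lower at CT8. Of all tested genes 9% were higher and 9.15% lower at CT16, and 18.7% higher and 20.3% lower at CT8. Hnf4a, an activator of Nr1i3, rose by 0.70 ± 0.17 at CT16 (edgeR adjusted p = 0.00807) and 0.84 ± 0.17 at CT8 (0.000955) in all 24 alternatives. Hnf4a read 769.9 to 941 CPM in CryDKO_CT16 and 669 to 917 in CryDKO_CT8, against 396 to 642 in WT_CT16 and 398 to 517 in WT_CT8. The PAR bZIP gene Dbp fell by 0.54 at CT16 (SE 0.18, adjusted p = 0.0418) and Tef by 0.39 at CT8 (SE 0.15, adjusted p = 0.0477), in 15 and 8 of 24 alternatives. Between times in WT, CT16 against CT8, 3 of the 12 were higher and 0 lower, where 2.53% of all tested genes were called in either direction. Among the 3 were Dbp, which rose by 1.01 ± 0.18 (adjusted p = 0.0201), and Nr1d1, a clock repressor, which rose by 1.32 ± 0.29 (0.039), in 21 and 17 of 24 alternatives. Nr1d2, the related repressor, fell by genotype at both times, by 0.67 at CT16 (SE 0.17, adjusted p = 0.0108) and 0.58 at CT8 (SE 0.17, adjusted p = 0.0117).

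Other genes known to be induced through CAR were called in both directions. Of 17 phase I targets tested, 2 were higher and 2 lower in CryDKO at CT16 and 3 were higher and 2 lower at CT8, with medians of 0.47 and 0.40 on the log2 scale. Of 17 phase II and transport targets, 4 were higher and 2 lower at CT16 and 7 were higher and 1 lower at CT8, with medians of -0.11 and 0.49. The shares over all tested genes were 9% higher and 9.15% lower at CT16, and 18.7% and 20.3% at CT8. Cyp3a11, a broad drug oxidase, and Ephx1, an epoxide hydrolase, did not pass at either time.

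Ugt1a9, a glucuronosyltransferase, had the largest change of the targets called at either time. It read 156, 99.5, 109 and 159 CPM in CryDKO_CT16 and 81.8, 83.8, 113 and 83.8 CPM in CryDKO_CT8, against 28.7, 19.4, 17.7 and 8.19 CPM in WT_CT16 and 10.8, 9.16, 7.68 and 6.19 CPM in WT_CT8. Unlike the Cyp2b genes it varied little among the CryDKO libraries, and all 8 were above all WT libraries. Ugt1a9 rose by 2.83 ± 0.30 at CT16 (edgeR adjusted p = 1.92e-05) and 3.42 ± 0.31 at CT8 (4.05e-06), and Ugt1a1, the bilirubin conjugating enzyme, by 0.77 ± 0.22 and 0.76 ± 0.22 (0.0202 and 0.0102). Genes of the Ugt1a locus share their last exons, so reads can be split between them. Abcc4, an export pump, rose at CT8 by 1.59 ± 0.41 (adjusted p = 0.00603).

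The glutathione transferase Gsta2 read 36.4, 24.1, 16.3 and 32.4 CPM in CryDKO_CT16 and 41.8, 89.3, 27.1 and 20.4 CPM in CryDKO_CT8, against 8.29, 30.0, 10.8 and 5.65 CPM in WT_CT16 and 13.9, 10.8, 9.77 and 10.5 CPM in WT_CT8. Library 10, the highest for Cyp2b10, was also the highest for Gsta2, and WT library 6, the highest WT library for Cyp2b10, was the highest WT library for Gsta2. Gsta2 rose by 1.99 ± 0.55 at CT8 (edgeR adjusted p = 0.0123). Akr1b7, an aldose reductase relative, rose at CT8 by 2.92 ± 0.63 (adjusted p = 0.00154) at a level near 1 CPM. Por, which supplies electrons to the cytochromes P450, rose by 0.60 ± 0.21 at CT8 (adjusted p = 0.0278, called in 18 of 24 alternatives). In the other direction, Cyp1a2 fell by 1.06 at CT8 (SE 0.32, adjusted p = 0.0152), Aldh1a7 by 0.82 at CT16 (SE 0.20, adjusted p = 0.00858), Gstm2 by 0.98 at CT16 (SE 0.22, adjusted p = 0.00474) and Ugt2b35 by 0.67 at CT16 and 0.68 at CT8 (adjusted p = 0.0238 and 0.0106). Cyp2c37 and Cyp2c29 rose at CT16 by 1.03 ± 0.31 and 0.76 ± 0.24 (adjusted p = 0.0286 and 0.0354), each in 17 of 24 alternatives.

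**Figure D5:**
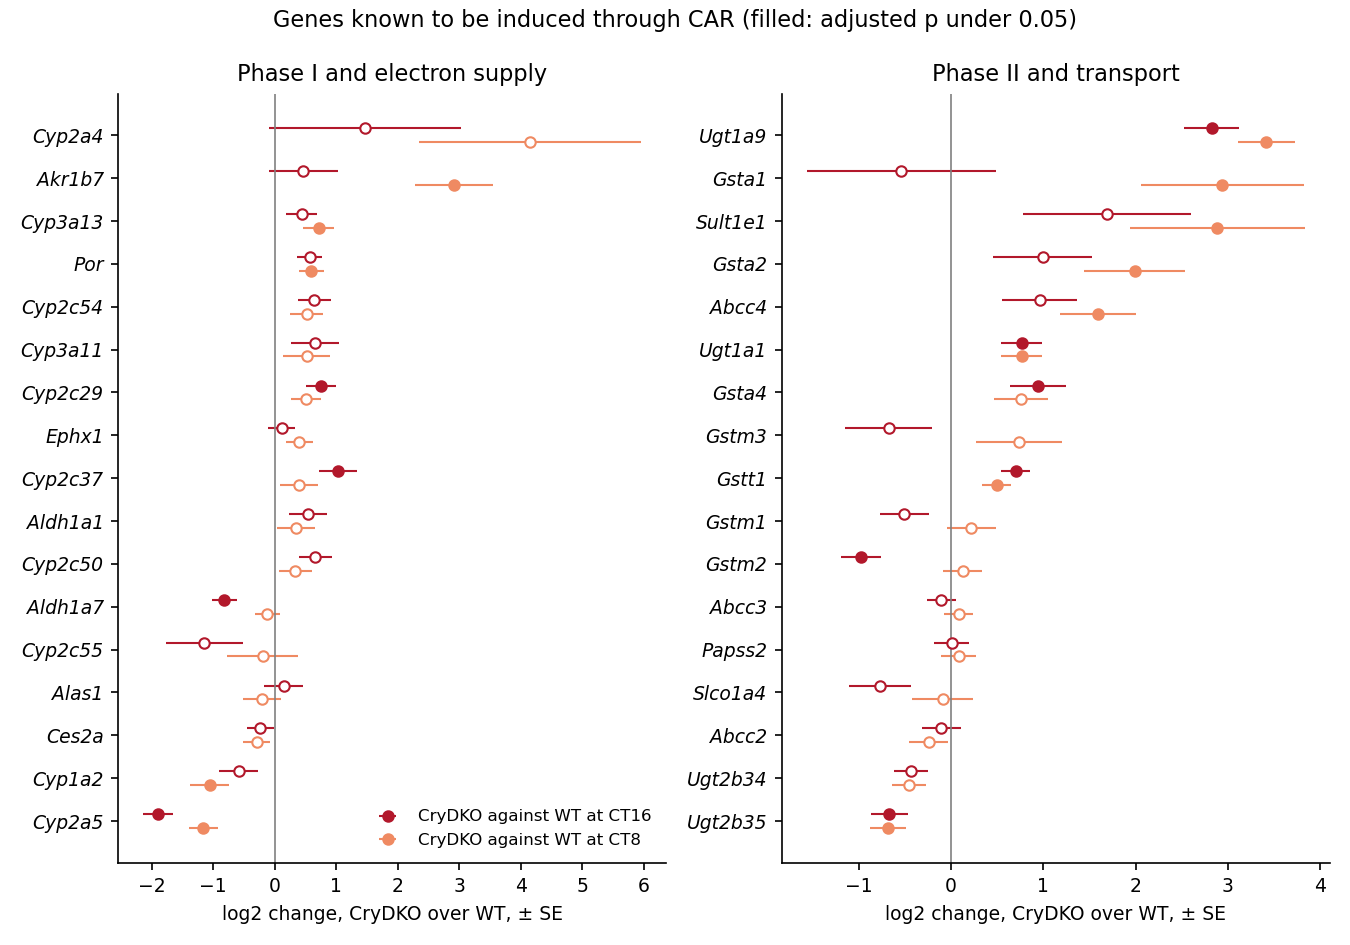
Log2 changes by genotype (CryDKO over WT, edgeR, with SE) of the 17 phase I and 17 phase II and transport targets of CAR at CT16 and CT8, filled where the adjusted p was under 0.05. Ugt1a9 lies at 2.83 and 3.42, Cyp2a5 at -1.89 and -1.16, and most genes are open.

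Because Cyp2b9 and Cyp2b13 are female-predominant, other genes with that bias were set beside them. Of 15 tested female-biased genes, 5 were higher and 0 lower in CryDKO at CT16 (2 to 7 higher over the alternatives), and 7 were higher and 0 lower at CT8 (5 to 13), with medians of 1.48 and 2.34 on the log2 scale. Of all tested genes 9% were higher at CT16 and 18.7% at CT8. Among the 5 at CT16 was Cyp3a44, with at most 0.0619 CPM in WT, called in 9 of 22 alternatives. It passed the filter on low counts only through CryDKO libraries, so it had to be higher, and the medians include it. Cyp2c40 rose by 2.53 ± 0.43 at CT16 and 3.07 ± 0.45 at CT8 (edgeR adjusted p = 0.00172 and 0.000257) and Cyp2c69 by 2.96 ± 0.70 and 3.41 ± 0.73 (0.0127 and 0.00329), and these paralogs are near-identical, so that their reads may be split. Cyp17a1, a steroid hydroxylase, rose at CT8 by 2.26 ± 0.51 (adjusted p = 0.00436).

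Of 20 tested male-biased genes, 0 were higher and 3 lower in CryDKO at CT16 (2 to 5 lower over the alternatives), and 1 was higher and 6 lower at CT8 (3 to 13), with medians of -0.56 and -1.55 on the log2 scale. Of all tested genes 9% were higher and 9.15% lower at CT16, and 18.7% higher and 20.3% lower at CT8. Bcl6, a repressor of female-biased genes in male liver, fell by 1.57 at CT16 (SE 0.36, edgeR adjusted p = 0.00854) and by 1.52 at CT8 (SE 0.35, adjusted p = 0.00409). Selenbp2 fell by 2.77 at CT16 and 2.14 at CT8 (edgeR adjusted p = 0.0111 and 0.0163). At CT8 Nudt7 fell by 2.22 (0.000115) and Mup21 by 3.66 (0.0156). Cyp2c70 was the 1 gene called higher at CT8, by 1.04 (0.00638). Cyp2d9 was chosen from the list after its library values were seen, so its pattern is not a measure of the list. The male-biased Cyp2d9 read 443, 501, 1729.7 and 1101 CPM in CryDKO_CT16 libraries 11 to 14 and 253, 292, 1364 and 580.2 CPM in CryDKO_CT8 libraries 9, 10, 15 and 16, against 711 to 1536 CPM in WT_CT16 and 852 to 1071 CPM in WT_CT8. It was therefore lower in all 4 libraries with high Cyp2b13 and in library 10 than in any WT library, and within or above the WT range in libraries 13, 14 and 15. Of 11 tested genes of growth hormone signalling, 2 were higher and 2 lower in CryDKO at CT16, and 0 were higher and 2 lower at CT8. Ghr, the receptor, fell by 0.89 at CT16 (SE 0.21, adjusted p = 0.0058) and 0.78 at CT8 (SE 0.20, adjusted p = 0.00606), and Igf1 by 0.70 and 0.63 (adjusted p = 0.0253 and 0.022). The 2 called higher at CT16 were Socs2, by 1.24, and Stat5a, by 0.56 (edgeR adjusted p = 0.0335 and 0.0313). They were called in 16 and 17 of 24 alternatives. The 4 tested Y-linked genes were themselves called lower in CryDKO, 2 of 4 at CT16 and 4 of 4 at CT8, and their sum with Xist was 114 to 161 and 95.1 to 121 CPM in CryDKO_CT16 and CryDKO_CT8, against 160.4 to 206 and 161 to 217 CPM in WT_CT16 and WT_CT8.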

How the data were processed

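Poly(A) RNA from liver was sequenced as read pairs in 16 libraries. Per the submitters' processing notes, FastQC, Trimmomatic 0.35, STAR 2.5.3, HTSeq 1.99.2 and DESeq2 were used with build GRCm39 (mm39). The sources used here do not give their annotation, strand setting and other parameters. The table the authors deposited holds counts of whole reads for 40840 gene symbols, and a second, normalized table was not used. Columns name the group and a running library number, which served as library names, and 0 columns were left out.

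In R 4.3.3, edgeR 4.0.16 served for all main tests: filterByExpr kept 14484 genes, TMM scaled the libraries, and a robust quasi-likelihood model with a coefficient for each group took in all 16 libraries. P-values are two-sided and adjusted by Benjamini-Hochberg over all tested genes, with a threshold of 0.05. The SE of a log2 change is its size divided by the square root of F. CPM are reads per 1e6 of TMM-scaled library size, and per kilobase values use the median length of coding transcripts in GENCODE vM21. Depth sets the precision of low genes: 3 reads, the floor used, were worth 0.0928 to 0.176 CPM. Intervals and floors cover counting error only, and fragments without molecular identifiers are not independent molecules. The fit was tested on simulated data. Alternatives were DESeq2 1.42.0, limma 3.58.1 (voom), other scalings and filters, fewer groups and each library left out.

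Members and gene lists were chosen with earlier results of these data known. Named genes were the 4 members, then up to 5 genes with the lowest adjusted p per list and comparison, and the 5 genes most like each member. Some of these are left out of the text, and some list genes are given for their library values (Cyp2d9) or as not passing (Cyp3a11, Ephx1), chosen after their values were seen. Promoter windows come from RefSeq on GRCm38.p6 and gene order from GENCODE vM21, and neither uses the build of the counts.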

Additional observations from a re-analysis of the deposited data

Results flagged for a closer look

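In WT_CT16, library 8 had 0.0697 CPM of Cyp2b13, which is 2 reads, while the other 3 libraries of the group had 0. The gap between this library and the rest made up the whole range of the group. With 0 reads in the other libraries, any read in 1 library gives this result. The rate of about 1 in 20 groups that the rule assumes therefore does not apply here. The rule was set for 16 combinations of gene and group. The same library had the highest Nr1i3 of its group, 513.7 CPM, and the group's lowest Cyp2b10, 0.139 CPM.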

How the results depend on the processing

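By genotype, Cyp2b9 at both times and Cyp2b10 at CT8 kept their direction and call in all 24 alternatives each, over log2 changes of 6.67 to 7.34 (Cyp2b9, CT16), 7.18 to 7.71 (Cyp2b9, CT8) and 4.72 to 6.44 (Cyp2b10, CT8). Calls at the margin moved. Cyp2b13 at CT8 was not called with voom (fitted log2 change 8.50) or without the filter on low counts (13.87), and was called in 5 of 16 fits that left out a library (13.02 to 14.30, values that depend on the prior count). Nr1i3 at CT8 was not called without the filter (-0.90) and ranged from -1.27 to -0.73 as libraries were left out. At CT16, Cyp2b10 was called with DESeq2 (2.93) and without the robust option (2.92) and ranged from 2.53 to 4.37 without 1 library, and Cyp2b13 was called with DESeq2 (12.53) and without the robust option (12.14). The causes were not tested.

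Signs of uncalled changes turned in some settings. Nr1i3 by genotype at CT16 was 0.0803 with voom and -0.24 to 0.34 without 1 library, the positive value being that without WT_CT16 library 8, and Tomm40l ranged from -0.56 to 0.0672, likewise positive without that library alone. Between dosing times in CryDKO, Cyp2b9 was -0.22 with voom, -0.0626 with library size alone and -0.0025 with a mean of at least 50 reads, and leaving out 1 library gave -0.32 to 0.35 for Cyp2b9, -1.65 to 0.0723 for Cyp2b10, -1.64 to 1.31 for Cyp2b13 and -0.0095 to 0.53 for Nr1i3. In WT, Nr1i3 ranged from -1.05 to -0.50 and was called in 1 fit, that without WT_CT16 library 8. No call was reached in any alternative for the interaction of Cyp2b9, Cyp2b10 or Nr1i3.

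Counts of called genes moved more. With at least 2-fold change they were 2279 of 5649 by genotype at CT8, 890 of 2629 at CT16 and 106 of 367 between times in WT. Between times in CryDKO, 0 genes were called, against 13 with DESeq2, 2 without the filter and 0 to 3 without 1 library. In WT the 367 became 1563 with DESeq2, 955 with voom, 663 without the filter, 712 with its own groups alone and 0 to 3580 without 1 library, the highest without WT_CT16 library 8. The 6 interaction calls became 135 with DESeq2, 1 with voom, 0 with library size alone, 30 without the filter, 1 with a mean of at least 50 reads and 0 to 568 without 1 library, again highest without library 8. Scaling by library size alone changed the split of higher and lower calls from 2706 and 2943 to 961 and 5127 at CT8, from 1303 and 1326 to 605 and 1883 at CT16, and from 179 and 188 to 18 and 354 between times in WT. Of 190 counts of called list genes, 129 stayed within 1.5 times in every alternative.

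The fit to the groups of 1 comparison gave no value for Cyp2b13 by genotype or for Cyp2b10 between times in WT, and there was none for the interaction. Cyp2b13 between times in WT and its interaction are not reported, since the WT groups held 2 and 0 reads. Leaving out libraries from the ratio of Cyp2b13 reads was an alternative chosen after seeing the data. No paired analysis was possible because the columns carry a running library number and not the replicate number of the labels. Depth limits Cyp2b13 in WT, with 0 to 2 reads per library, and Cyp2b10 in WT_CT8, with 3 to 9.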
